A study of Mus musculus with 2 samples.

Results

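Genes that make bile acids from cholesterol and genes that carry them into and out of the hepatocyte were compared between liver RNA of Gbp5 knockout (KO) and wild-type (WT) mice. The set held 37 genes of 52636 Ensembl genes counted. It was chosen by name: 15 genes of synthesis and conjugation, 6 of uptake, 13 of export, the receptor pair Fgfr4 and Klb, and the epoxide hydrolase gene Ephx1. All mice were C57BL/6, 9 weeks old, and were killed 6 h after D-galactosamine (GalN, 800 µg per g body weight) and lipopolysaccharide (LPS, 100 ng per g). The KO mice were GBP5-/-, and the labels name no other allele and no sex. RNA of 4 livers was pooled per genotype and sequenced as 1 library, so every difference below is between 2 libraries. Without replicates there is no test and no p-value, and pooling hides the spread between animals. No library without GalN and LPS was analysed here. GalN with LPS is a standard model of acute hepatocyte injury, so the libraries hold RNA of injured liver.

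Bile acids are made in hepatocytes by hydroxylation of the sterol ring, shortening of the side chain in peroxisomes, and conjugation to taurine or glycine. The classical route starts with Cyp7a1 and the alternative route with Cyp27a1 and Cyp7b1. Conjugated bile acids return from the gut in portal blood, are taken up across the basolateral membrane mainly by Slc10a1, and are pumped into the canaliculus by Abcb11. The nuclear receptor FXR (Nr1h4) senses bile acids. Together with gut FGF15 acting on Fgfr4 and Klb, it is known to restrain Cyp7a1 and Cyp8b1 and to raise Abcb11. Endotoxin and inflammatory cytokines are known to lower several of these transporters.

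Reads on Ensembl genes came to 19864848 in WT and 15750875 in KO. CPM are counts scaled to these totals, and the limit set by 3 reads is 0.151 CPM for WT and 0.190 for KO. The targeted gene Gbp5 had 161.6 CPM in WT and 55.4 in KO, lower but not absent in the library labelled KO. Levels are given as FPKM, reads scaled to exon length and library size. Differences are ratios of CPM with 95% exact Clopper-Pearson intervals, which cover counting error only. A gene was measured if it reached 1 CPM in either library, and it was counted as different at 1.5-fold, a rule of size and not a test.

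Of the 37 genes 34 were measured, and the other 3 were Hsd3b7, Slc51a and Slc51b. Of the 34, 5 were at least 1.5-fold higher in KO, which is 14.7%, beside 12.5% of all 14072 genes measured. In the other direction 3 were at least 1.5-fold lower, or 8.82%, beside 24.9% of all genes. With TMM scaling the split was 6 higher and 2 lower. The higher ones were Cyp39a1, Baat, Abcg5, Abcg8 and Klb, and the lower ones Cyp7a1, Abcb4 and Abcc6. At 2-fold only Cyp39a1 was higher and only Abcc6 lower, beside 4.63% and 12.4% of all genes. By CPM among genes at 1 CPM, the 1.5-fold share of higher members lay near the background and that of lower members under it. Of the 34, 19 differed by less than 0.3 on the log2 scale. Added up, the 37 genes took 0.999% of reads in WT and 1.01% in KO.

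The difference between these libraries went with base composition, and this touches single members. Over 14020 measured genes with a GC value, Spearman's rho between the log2 ratio and exon GC content was -0.45, a description across genes that share both libraries. By GC deciles, the median log2 ratio was 0.31 at the GC-poor end and -0.83 at the GC-rich end. Over the 34 measured members rho was -0.21. Differences were therefore also computed after taking off the median log2 ratio of genes of like GC content and length, called the corrected value below. Where no corrected value is printed, the difference is the one before the correction. The correction also takes off any real difference that goes with those properties. After the correction 5 members were higher (14.7%, beside 13.1% of all genes) and 2 lower (5.88%, beside 17%). Acox2 joined the higher genes, and Baat and Abcc6 no longer passed. The sign changed for 9 of the 34.

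**Figure D1:**
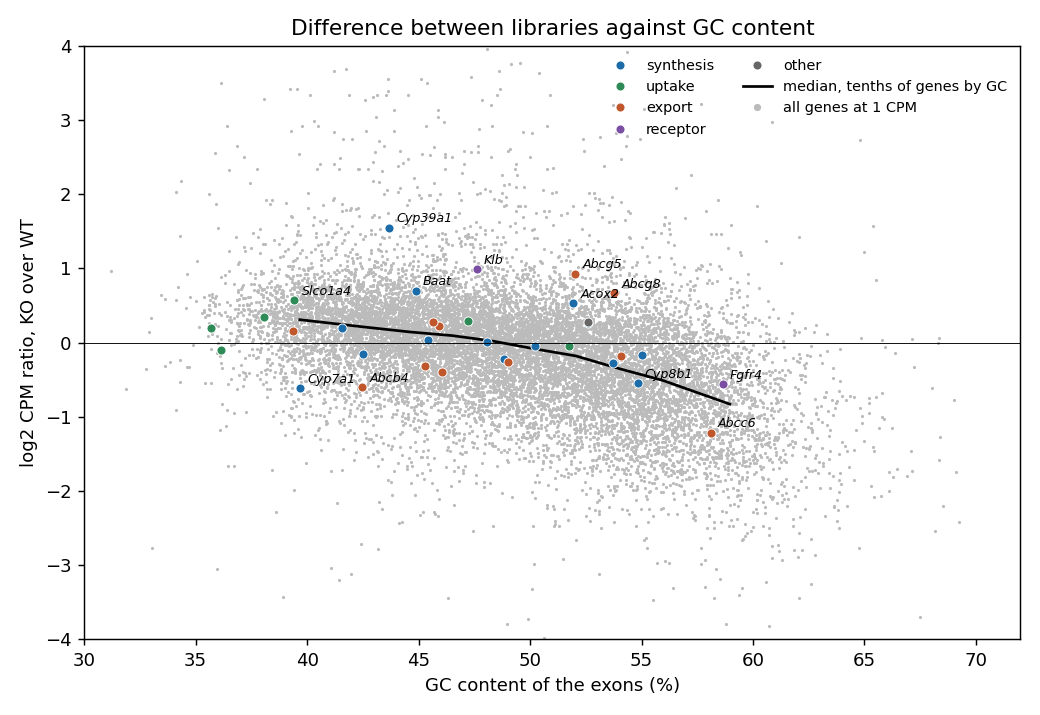
Log2 CPM ratio (KO over WT, vertical) against exon GC content in percent (horizontal) for 14020 measured genes (grey; 42 lie outside the axis limit of 4) and the members coloured by role; the black line joins the medians of GC deciles. Abcc6 and Fgfr4 lie at the GC-rich end where the line is lowest, whereas Cyp7a1 and Abcb4 lie below the line at its GC-poor end and Cyp39a1 far above it.

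The hydroxylases of bile acid synthesis did not move one way. Cyp7a1 (ENSMUSG00000028240, GRCm38 chromosome 4, 6265612 to 6275633, minus strand), which encodes the rate-limiting enzyme of the classical route, had 8.57 FPKM in WT and 5.61 in KO. That is 1.53-fold lower on 711 and 369 reads, with an interval from 1.35 to 1.74. Its exons are GC-poor at 39.7%, and genes of like composition had a median log2 ratio of 0.32. Its log2 difference of -0.61 was therefore -0.93 after the correction. Cyp8b1, whose product directs synthesis to cholic acid, had 40.8 FPKM in WT and 28.0 in KO. It was 1.46-fold lower (1.34 to 1.59), just short of the 1.5-fold rule, with a corrected log2 value of -0.49. These 2 genes, on which feedback by FXR and FGF15 is best known, were thus lower by like amounts before the correction.

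The alternative route differed less. Cyp27a1, the mitochondrial sterol hydroxylase gene, had 305 FPKM in WT and 253 in KO, which is 1.21-fold lower (1.17 to 1.24). Cyp7b1, which encodes the oxysterol hydroxylase that follows it, had 89.8 and 80.8 FPKM, 1.11-fold lower (1.06 to 1.17). Both lay under the 1.5-fold rule with and without the correction, with corrected log2 values of -0.22 and -0.41. Cyp39a1 (ENSMUSG00000023963, chromosome 17, 43667425 to 43751431, plus strand), an oxysterol hydroxylase gene of the liver, went the other way. On 198 and 459 reads it had 3.26 FPKM in WT against 9.55 in KO and was 2.92-fold higher (2.47 to 3.47). The corrected log2 value was 1.29, down from 1.55. It was the highest of the 34 measured members by either value and the only hydroxylase above 0. At these levels it held 0.148% of the summed FPKM of synthesis genes in WT and 0.421% in KO, whereas Cyp27a1 held 13.9% and 11.2%.

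The promoter of Cyp8b1 is shown because it had the larger difference of the 2 lower hydroxylase genes with an entry in the RefSeq promoter table, the other being Cyp27a1. These are the 100 bases before its start, GRCm38.p6 chr9:121916306-121916405, minus strand, and capitals mark a match to the HNF4A motif CAAAGTCCA from base -67 to -59.
Cyp8b1: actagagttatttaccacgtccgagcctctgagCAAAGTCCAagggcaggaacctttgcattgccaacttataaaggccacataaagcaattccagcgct
That motif was found in 0.384% of 32851 promoter windows and in none of the other members searched. Hnf4a, the hepatocyte nuclear receptor gene whose product reads it, had 87.7 FPKM in WT and 95.5 in KO. Its ratio was 1.09 (1.06 to 1.12), with a corrected log2 value of 0.61. The match describes the letters of the window only.

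Ring modification after hydroxylation was represented by Akr1d1, the steroid reductase gene, at 30.7 FPKM in WT and 35.3 in KO. It was 1.15-fold higher (1.07 to 1.23), or at -0.05 after the correction. Hsd3b7, which encodes a sterol dehydrogenase of ring modification, was listed at 0 reads in both libraries. In the GENCODE M21 annotation 2746 of its 2769 exon bases, or 99.2%, are shared with exons of the read-through gene Gm49388 or the antisense gene 9430064I24Rik. Those 2 genes had 0 and 1 reads in WT and 0 and 0 in KO. The sources used here do not say how reads on several genes were counted, so the 0 cannot be read as a level of Hsd3b7.

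Side-chain genes of the peroxisome differed little. Scp2, the sterol carrier protein gene, led all members in level with 905 FPKM in WT and 925 in KO, and its ratio was 1.02 (1.01 to 1.03). Hsd17b4, which encodes the bifunctional enzyme of this pathway, had 96.5 and 97.2 FPKM, so that the ratio was 1.01 (0.972 to 1.05). The acyl-CoA synthetase gene Slc27a2 had 188 and 182 FPKM. These 3 differed by less than 0.3 on the log2 scale before and after the correction. Amacr, the racemase gene, was 1.17-fold lower at 42.2 and 36.1 FPKM, and the thioesterase gene Acot8 had 8.32 and 7.44 FPKM and a ratio of 0.894 (0.753 to 1.06). Acox2, which encodes the branched-chain acyl-CoA oxidase that shortens the side chain, was the exception. It had 28.5 FPKM in WT and 41.3 in KO, 1.45-fold higher (1.37 to 1.54), and passed 1.5-fold after the correction at 0.62.

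Both conjugation genes were higher in KO. Baat, which joins the bile acid to taurine or glycine, had 43.3 FPKM in WT and 70.4 in KO. It was 1.63-fold higher (1.53 to 1.74), at 0.70 as log2 and 0.46 after the correction, which is short of 1.5-fold. Slc27a5, which encodes the bile acid CoA ligase that acts just before Baat, had 412 and 496 FPKM and was 1.20-fold higher (1.18 to 1.23), with a corrected value of 0.35. The ligase thus remained the more abundant of the pair, at 9.52 times the FPKM of Baat in WT and 7.05 times in KO.

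Over the 14 measured genes of synthesis and conjugation the median log2 ratio was -0.02, beside -0.07 over all genes measured, with 7 above 0 and 7 below. Corrected, it was -0.06, beside 0.00. Their summed level was 2202 FPKM in WT and 2268 in KO (ratio 1.03). Scp2 alone made up 41.1% and 40.8% of those sums, so the sums say little of the rarer hydroxylases.

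**Figure D2:**
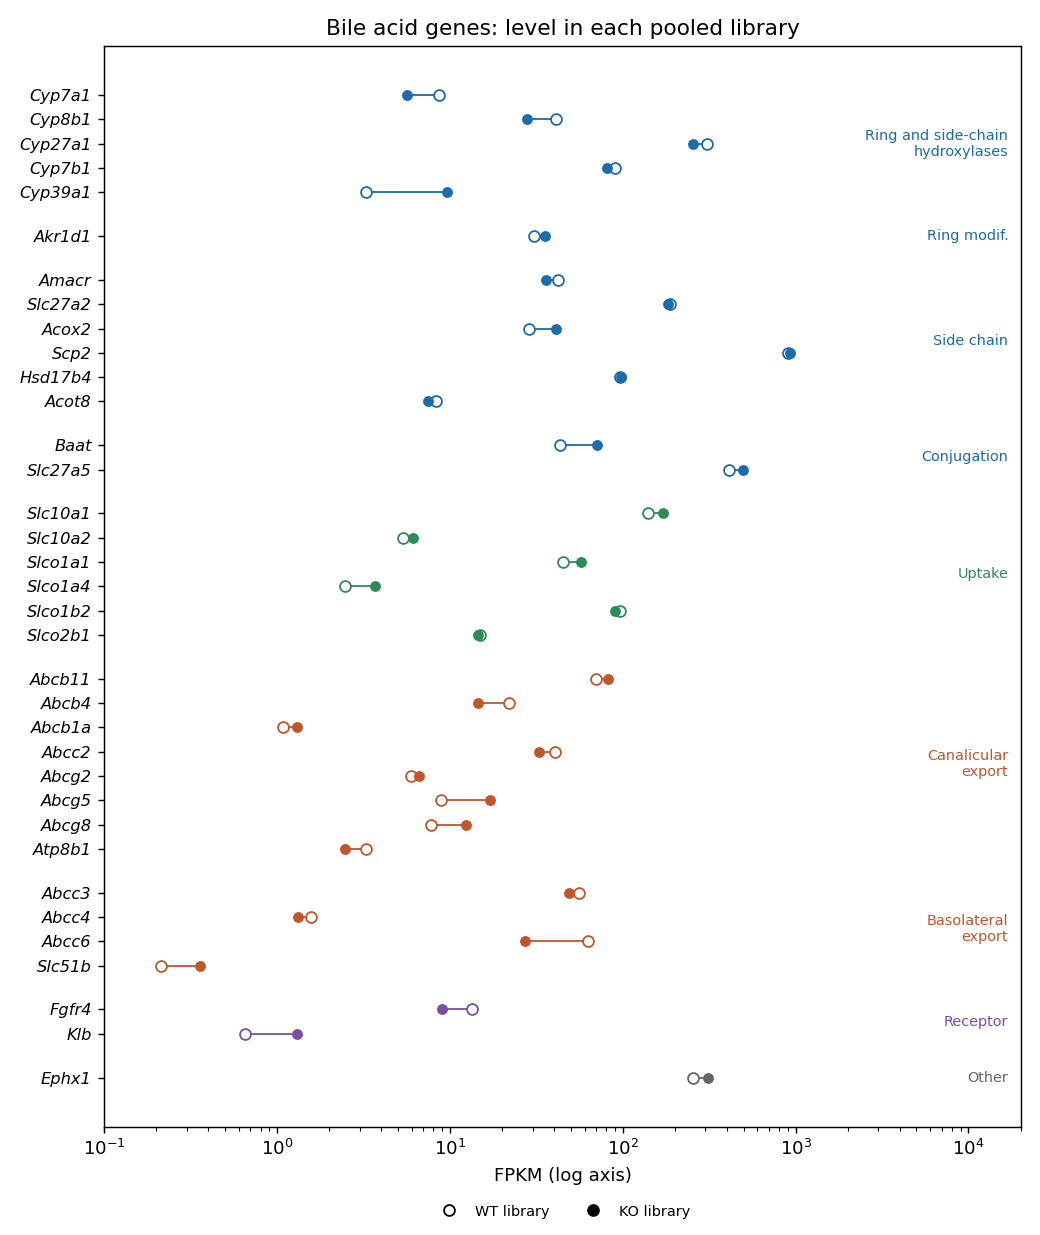
FPKM of each member on a log axis in the WT library (open circles) and the KO library (filled circles), grouped and coloured by role; Hsd3b7 and Slc51a, at 0 reads, are not drawn. Levels span from under 1 FPKM for Slc51b to 905 and 925 for Scp2, and for most members the circles lie close together, with wide gaps for Cyp39a1, Abcc6, Abcg5 and Klb.

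None of the 6 uptake genes passed 1.5-fold either way, with or without the correction, but with TMM scaling Slco1a4 did. Slc10a1, the sodium-dependent bile acid transporter gene (NTCP, chromosome 12), had 139 FPKM in WT and 171 in KO, 1.23-fold higher (1.18 to 1.27). Among the organic anion transporters, Slco1a1 had 45.2 FPKM in WT and 57.3 in KO, 1.27-fold higher (1.22 to 1.32). Slco1b2, the mouse counterpart of the human liver OATP1B transporters, had 95.6 and 89.5 FPKM, 1.07-fold lower (1.04 to 1.10). Slco1a4 had 316 and 373 reads, or 2.48 and 3.69 FPKM, and lay just under the rule at 1.49-fold higher (1.28 to 1.73). Its log2 value of 0.57 became 0.60 with TMM scaling, which makes it the added gene among the 6 higher there. Slco2b1 had 14.9 and 14.5 FPKM and a ratio of 0.973 (0.906 to 1.04). The corrected log2 values of these 5 genes ran from -0.41 for Slco1b2 to 0.32 for Slco2b1. Slco1a1 and Slco1a4 are neighbours and close relatives on chromosome 6, so reads shared between relatives may be split unevenly.

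Slc10a2, known for bile acid reabsorption in ileum and in cholangiocytes, had 5.35 FPKM in WT and 6.12 in KO on 441 and 400 reads. The ratio was 1.14, and its interval of 0.997 to 1.31 includes no difference. Its log2 value of 0.19 was -0.12 after the correction. Cholangiocyte markers differed between the libraries. Of the 10 measured of 12, 8 were above 0 and 4 at least 1.5-fold higher, beside 12.5% of all genes. Sox9 (1.41-fold lower) and Aqp1 (1.13-fold lower) went the other way. The summed level of the 12 markers went from 138 FPKM in WT to 198 in KO. The part of bile duct cells in it was not tested. Intestinal and gallbladder markers were also read, since Slc10a2 is known from ileum. Of the 10, Fabp6, the bile acid binding protein gene of ileum, and Cdx2, a defining intestinal factor, were at 0 reads in both libraries. The 4 measured were above 0. Tff2, a trefoil peptide gene of mucous epithelia, had 4 and 62 reads, and Vil1, a brush border gene, 25 and 76 reads. Tff2, at 0.201 CPM in WT and 3.94 in KO, was measured only through KO. Of those not measured, Muc13 had 9 and 4 reads, Fxyd3 5 and 6, Muc5b 3 and 3, and Cdx1 0 and 2. Their ratios were 19.5 (7.26 to 74.0) for Tff2 and 3.83 (2.41 to 6.29) for Vil1. Slc5a1 had a ratio of 1.40 (1.03 to 1.92) and Fabp2 of 1.24 (1.13 to 1.36). The part of such cells in the value of Slc10a2 was not tested.

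The median log2 ratio of the 6 uptake genes was 0.25, or 0.09 after the correction, beside -0.07 and 0.00 over all genes. Uptake genes are GC-poor, with a median of 38.8% beside 49.3% over all genes, and 4 of the 6 stood above 0. The summed level was 303 FPKM in WT and 342 in KO, of which Slc10a1 made up 45.9% and 49.9%. Upstream sequences of the 2 most abundant uptake genes are shown, with capitals marking a match to the STAT motif TTCNNNGAA (N is any base) for Slc10a1 and to the HNF1 motif GTTAATNAT for Slco1b2. They are the 100 bases before the start, GRCm38.p6 chr12:80968706-80968805, minus strand, and chr6:141629418-141629517, plus strand.
Slc10a1: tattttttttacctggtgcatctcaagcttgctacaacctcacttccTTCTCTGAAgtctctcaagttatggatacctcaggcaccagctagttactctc
Slco1b2: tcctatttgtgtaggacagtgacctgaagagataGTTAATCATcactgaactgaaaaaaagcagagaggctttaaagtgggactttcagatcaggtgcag
The STAT match spans bases -53 to -45 and the HNF1 match bases -66 to -58. The STAT motif is common, in 7.02% of all windows, and the HNF1 motif was in 0.737%.

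Canalicular exporters differed gene by gene. Abcb11, the bile salt export pump gene, had 70.0 FPKM in WT and 81.5 in KO, 1.17-fold higher (1.13 to 1.21), or at 0.06 as corrected log2. Abcc2, which exports bilirubin glucuronides and other conjugates, had 40.5 and 32.5 FPKM and was 1.25-fold lower (1.20 to 1.30). Abcb4, the phospholipid floppase gene whose product supplies phosphatidylcholine to bile, had 21.9 and 14.4 FPKM. Abcb4 was 1.52-fold lower (1.44 to 1.60) on 4081 and 2133 reads. With TMM scaling its log2 value of -0.60 became -0.58, just short of the rule, and the correction moved it to -0.73. Atp8b1, an aminophospholipid flippase gene of the canalicular membrane, had 3.25 and 2.48 FPKM and was 1.31-fold lower (1.12 to 1.54). Corrected log2 values were -0.43 for Atp8b1 and -0.35 for Abcc2. Of the 4 genes, those for the phospholipid transporters Abcb4 and Atp8b1 and the conjugate pump Abcc2 were thus lower in KO and that for the bile salt pump higher.

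Abcg5 and Abcg8 encode the subunits of the sterol exporter, which work only as a heterodimer. Abcg5 (ENSMUSG00000040505) had 8.91 FPKM in WT and 16.9 in KO on 480 and 724 reads and was 1.90-fold higher (1.69 to 2.14). Abcg8 (ENSMUSG00000024254) had 580 and 731 reads, or 7.79 and 12.4 FPKM, and was 1.59-fold higher (1.42 to 1.78). The correction raised both, to 1.01 and 1.15 as log2. The genes lie head to head on chromosome 17, with RefSeq starts at 84683011 on the minus strand and 84683121 on the plus strand. In the GENCODE annotation Abcg8 reaches back to 84676302, inside Abcg5, so a gap holds only between these RefSeq starts. The 109 bases between them are shown because the 2 genes were higher together (GRCm38.p6 chr17:84683012-84683120, plus strand, read in the direction of Abcg8). None of the 9 motifs searched had a match there, so nothing is capitalised.
Abcg5-Abcg8: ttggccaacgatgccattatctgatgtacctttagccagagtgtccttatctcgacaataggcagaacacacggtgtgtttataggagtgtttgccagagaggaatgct
Their annotated exons share 82 bases on opposite strands. The sources used here give no strand setting of the counting, so reads on those bases cannot be told apart.

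The remaining canalicular genes were of low level. Abcg2, a transporter of conjugates and xenobiotics, had 5.91 and 6.60 FPKM, a ratio of 1.12 (1.02 to 1.23), or -0.12 as corrected log2. Abcb1a, a multidrug transporter gene, had 118 and 113 reads and a ratio of 1.21 (0.925 to 1.58). Its close relative Abcb1b had 186 and 145 reads, a ratio of 0.983 (0.786 to 1.23). A difference in either was not detectable at this depth.

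Among basolateral exporters, which return bile acids and conjugates to blood, Abcc6 differed most before the correction. Abcc6 (ENSMUSG00000030834, chromosome 7, 45967555 to 46030302, minus strand), an ATP-release transporter gene tied to tissue calcification and not known for bile acid transport, had 62.5 FPKM in WT and 27.0 in KO. It was 2.32-fold lower (2.21 to 2.43), the lowest of the 34 measured members. Its exons hold 58.1% GC, and genes of like GC content and length had a median log2 ratio of -1.24, so its value of -1.21 became 0.02. Abcc3, the basolateral exporter of bile acids and glucuronides, had 55.4 and 48.8 FPKM, 1.14-fold lower (1.09 to 1.18), but stood at 0.53 after the correction. Abcc4, a related exporter of conjugates, had 1.57 and 1.31 FPKM and a ratio of 0.837 (0.666 to 1.05). The organic solute transporter pair, which exports bile acids from ileum and is low in healthy mouse liver, was at the detection limit. Slc51a had 0 reads in both libraries, which allows levels up to the limits of 0.151 and 0.190 CPM, and Slc51b had 3 and 4 reads.

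Over the 11 measured exporters the median log2 ratio was -0.18, with 5 above 0 and 6 below. It was 0.02 after the correction. The 8 canalicular genes had a median of 0.19 (corrected -0.03) and the 3 measured basolateral genes -0.26 (corrected 0.02). The summed level of exporters was 279 FPKM in WT and 246 in KO (ratio 0.880), and Abcc6 made up 22.4% and 11.0% of those sums. Without a correction uptake thus had the highest median. Export had the lowest among measured genes, but without the filter on low values its median was -0.011, above that of synthesis. Corrected, the medians were -0.06 for synthesis, 0.09 for uptake and 0.02 for export, so the order of synthesis and export depended on both choices.

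**Figure D3:**
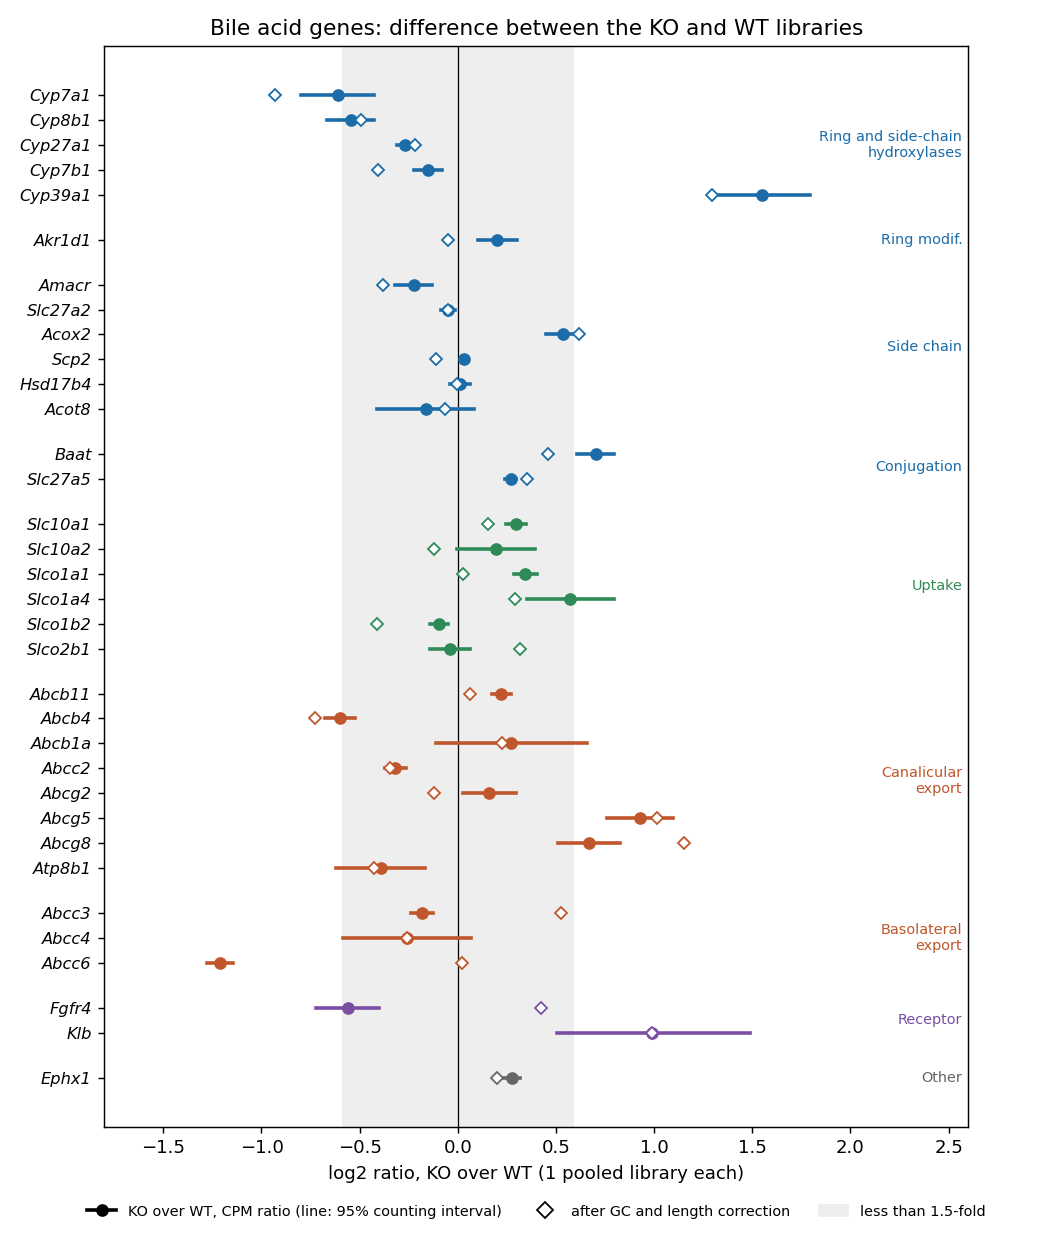
Log2 CPM ratio of KO over WT for the 34 measured members by role (filled circles, lines are 95% counting intervals) and the value after GC and length correction (open diamonds); the grey band marks differences under 1.5-fold. Cyp39a1, Abcg5, Abcg8 and Klb lie right of the band and Cyp7a1 and Abcb4 at or left of its edge by both values, whereas Abcc6 moves from -1.21 to 0.02.

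The receptor for FGF15 is formed by Fgfr4 and its co-receptor Klb (beta-Klotho). Fgfr4 had 13.3 FPKM in WT and 9.03 in KO, 1.48-fold lower (1.32 to 1.65). Its GC content of 58.6% is the highest of the members, and after the correction it stood at 0.42, above 0. Klb had 0.653 FPKM in WT and 1.30 in KO on 59 and 93 reads and was 1.99-fold higher (1.42 to 2.80), with a corrected log2 value of 0.99. It is the measured member with the fewest reads, and its interval is correspondingly wide. Fgf15, a hormone of the ileum, was at 0 reads in both libraries. Ephx1, an epoxide hydrolase gene of the endoplasmic reticulum, had 255 and 309 FPKM and was 1.21-fold higher (1.18 to 1.25).

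Ratios between genes that act as a pair do not depend on how the libraries are scaled, and 9 pairs could be computed. The tenth, Slc51a over Slc51b, could not because Slc51a had no reads. The ratio of Abcg5 to Abcg8 FPKM was 1.14 in WT and 1.37 in KO, a change of 1.20-fold (exact conditional interval 1.02 to 1.41). After the correction the change was 0.907, so the direction depended on it, and both subunits were higher either way. The ratio of Abcb11 to Slc10a1 FPKM, the main pump over the main uptake carrier, was 0.503 in WT and 0.478 in KO, a change of 0.949 (0.903 to 0.997), or 0.939 corrected. The upper end of that interval lies close to no change. Cyp7a1 to Cyp27a1, the classical over the alternative route, went from 0.0281 to 0.0222, a change of 0.790 (0.692 to 0.899), and was 0.611 after the correction. Cyp8b1 to Cyp7b1 changed by 0.761 (0.690 to 0.839), but by 0.941 corrected.

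Before the correction Fgfr4 to Klb changed most, from 20.4 in WT to 6.96 in KO, a change of 0.341 (0.237 to 0.487), and was 0.675 after it. Atp8b1 to Tmem30a, the flippase over its chaperone subunit, changed by 0.821 (0.696 to 0.968), and was at 1.0 corrected. Slc27a5 to Baat changed by 0.741 (0.692 to 0.792), or 0.929 corrected. Abcc3 to Abcc2, basolateral over canalicular export of conjugates, changed by 1.10 (1.04 to 1.16), and by 1.83 corrected, the largest corrected change of the 9. Slco1a1 to Slco1a4 changed by 0.852 (0.727 to 0.998).

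**Figure D4:**
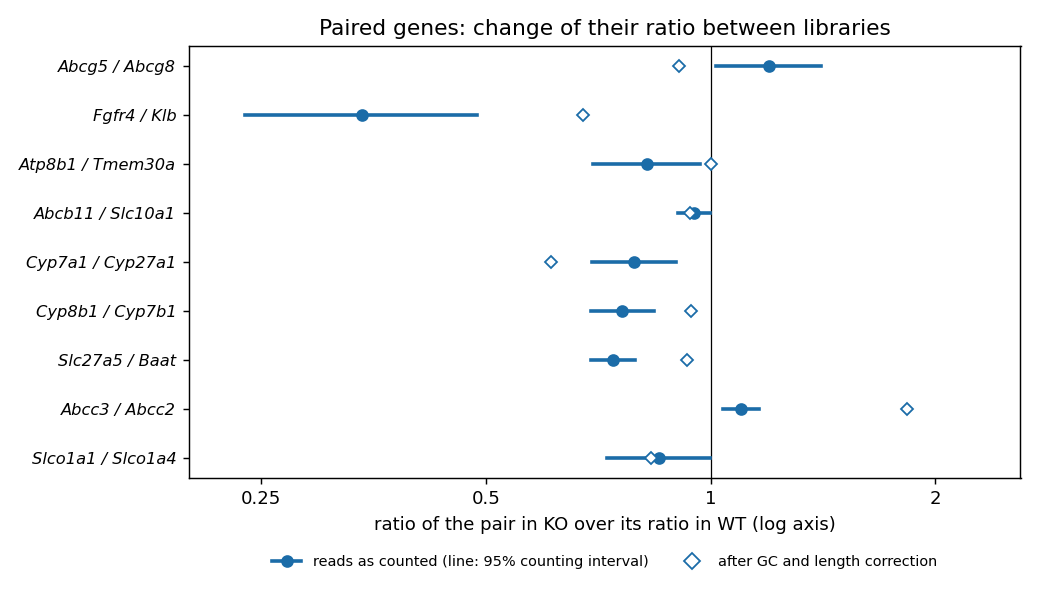
Change between libraries of the ratio of 9 gene pairs, as the ratio in KO over the ratio in WT on a log axis (circles, lines are 95% counting intervals), and the same after GC and length correction (open diamonds); 1 means no change. Abcb11 over Slc10a1 lies close to 1 by both values, Of the circles Fgfr4 over Klb lies farthest left and of the diamonds Cyp7a1 over Cyp27a1, and Abcc3 over Abcc2 has the diamond farthest right.

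Regulators and other genes of the pathway were read from a list of 41 genes that are no members. Of these 37 were measured, 3 at least 1.5-fold higher and 5 lower, beside 12.5% and 24.9% of all genes. The median log2 ratio of the 37 was -0.02. The 3 higher were Nr1h4, Nr5a2 and Vipas39. Nr1h4, the gene of the bile acid receptor FXR, had 13.9 FPKM in WT and 23.7 in KO, 1.71-fold higher (1.54 to 1.89), at 0.63 corrected. Nr5a2, which encodes LRH-1, an activator of Cyp8b1 and Cyp7a1, had 2.53 and 4.15 FPKM, 1.64-fold higher (1.41 to 1.91), at 0.68 corrected. Nr0b2, the FXR target gene that encodes the repressor SHP, had 142 and 108 reads and a ratio of 0.959 (0.740 to 1.24). Before the correction the receptor gene was thus higher, its target Nr0b2 not detectably different, Abcb11 slightly higher, and Cyp7a1 and Cyp8b1 lower. After it Nr0b2 stood at 0.39 and Abcb11 at 0.06, with the receptor gene still higher and Cyp7a1 and Cyp8b1 still lower.

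Vipas39, whose product works with Vps33b in canalicular sorting, was 2.05-fold higher (1.60 to 2.63) on 106 and 172 reads. At the low end were Ezr, Mafg and Slco3a1. Ezr, a gene for a membrane linker protein of the apical pole of bile duct cells, had 28.5 and 8.61 FPKM, 3.31-fold lower (2.99 to 3.68). Mafg, which encodes a small Maf protein known to repress Cyp8b1, had 23.7 and 7.75 FPKM, 3.05-fold lower (2.81 to 3.33), at -0.72 corrected. Slco3a1, another organic anion transporter gene, was 2.25-fold lower (2.09 to 2.42). Cyp2c70, the gene of the mouse enzyme that makes muricholic acids, had 285 and 308 FPKM, a ratio of 1.08.

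These are values of whole liver, where fewer cells of a type and less RNA per cell cannot be told apart. All 9 hepatocyte markers were measured, 7 above 0, with a median log2 ratio of 0.44. Their summed level was 32736 FPKM in WT and 48414 in KO, and most of that difference was Alb (albumin), at 16389 and 29569 FPKM. All 7 Kupffer cell and macrophage markers were below 0 and 6 were at least 1.5-fold lower, beside 24.9% of all genes. The sum of the 7 markers was 723 FPKM in WT and 281 in KO. Endothelial markers had sums of 142 and 111 FPKM, with 1 of 6 above 0, and stellate cell markers 97.8 and 104, with 2 of 5 above 0. Intestinal and gallbladder markers had sums of 48.7 and 67.7 FPKM, of which Fabp2 made up 46.8 and 58.0, whereas Tff2 had 0.345 and 6.74. Of the exocrine pancreas list 2 of 6 were measured, and they went opposite ways. Ctrb1 had 0 reads in WT and 297 in KO, so it was measured only through KO. Cela1 was lower in KO, with 521 and 328 reads and a ratio of 0.794 (0.689 to 0.913). Prss2 had 1 and 0 reads, and Cpa1 and Pnlip were at 0 in both. Amy2b, also at 0, is annotated as a pseudogene and tells nothing of pancreas. None of 4 kidney markers was measured. Most of the 37 genes are known as hepatocyte genes, and the part of cell composition in their differences was not tested.

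Promoter windows were found in the RefSeq table for 27 of the 37 members, and not for Cyp7a1, Cyp7b1, Cyp39a1, Amacr, Baat, Slc27a5, Hsd17b4, Abcc3, Abcc6 and Atp8b1. The 250 bases before each start were searched on both strands for 9 motifs. GGTCANTGA, most of the inverted repeat read by FXR, was in 0.731% of all windows and in no member. CAAGGTCA, read by NR5A2, was in 1.33% of windows and among members only in Abcg2. GTTAATNAT was in Slco1b2 and Slc10a2, and its first 6 bases GTTAAT, in 6.43% of windows, in the same 2 members. AGGTCAAAG, part of a direct repeat read by nuclear receptors, was in 0.381% of windows and in Slc27a2. TTNCGCAA, read by C/EBP factors, was in 0.670% of windows and in no member. TTCNNNGAA was in 5 members, namely Slc10a1, Slco1b2, Slco2b1, Hsd3b7 and Slc51b, and in 8.13% of all 27025 genes with a window. The other shares are of windows, of which a gene can have several, whereas members are counted by gene. GGGNNTTCC, read by NF-kB, was in 4.98% of windows and in Acot8 and Abcg2. Of the 5 members higher and 3 lower by the 1.5-fold rule, 4 had a window (Abcg5, Abcg8, Klb and Abcb4), and none of these held a match.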

How the data were processed

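Although the file names say FPKM, every deposited value is a whole number, 2708 and 2984 entries equal exactly 1, and the library totals differ; the authors' deposited values were therefore treated as unnormalized read counts. TopHat2, HTSeq 0.6.1 and GRCm38 are named in the submitters' processing notes; the sources used here give no annotation release, filter or strand setting. The 209 entries that are no Ensembl gene (0.652% and 0.496% of counts) were left out. CPM used the remaining totals, and FPKM the union of exons in GENCODE M21 (GRCm38). The correction subtracted the median log2 ratio of genes (at least 100 reads) within 10 bins of GC content, each split into 4 by length. Alternatives were that correction, TMM and median ratio scaling, log2 of FPKM with 1 added, a filter at 5 CPM and no filter. All 37 members are named; of the pathway list, 8 preset genes and the 3 highest and 3 lowest measured. Members, lists and alternatives were chosen with earlier results of these data known. Steps were tested on simulated counts. TMM factors came from edgeR 4.0.16 (R 4.3.3), and all else from Python 3.11.15 with scipy 1.17.1, pandas 2.3.3 and numpy 2.4.6. Sequences come from RefSeq (GRCm38.p6).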

Additional observations from a re-analysis of the deposited data

How the results depend on the processing

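Counts of members past 1.5-fold were 5 higher and 3 lower as reported. They were 4 and 1 of 34 on FPKM with 1 added, beside 4.15% and 14.5% of all genes. There Cyp7a1 (-0.53), Abcb4 (-0.57) and Klb (0.48) lost 1.5-fold. Under the other alternatives they were within 1.5 times the reported counts. With the filter at 5 CPM 5 and 3 of 34 passed, beside 8.43% and 24.5% of all genes. Without a filter 6 and 3 of 35 passed, beside 26.4% and 29.8%. How the share of higher members stood beside the background thus depended on the setting. The uptake median of 0.25 was 0.091 after the GC and length correction. The export median of -0.18 was 0.022 after it and -0.011 without a filter, where Slc51b with 3 and 4 reads enters. The correction changed the sign of 9 of the 34 measured members; of those past 1.5-fold as reported, only Abcc6 turned, to 0.022. Of the changes in pair ratios, that of Abcg5 to Abcg8 turned (0.907) and that of Atp8b1 to Tmem30a went to no change (1.0). Those of Fgfr4 to Klb (0.675), Cyp7a1 to Cyp27a1 (0.611), Cyp8b1 to Cyp7b1 (0.941), Slc27a5 to Baat (0.929) and Abcc3 to Abcc2 (1.83) left their counting intervals. The cause of the trend with GC content was not tested. No paired analysis was possible because each genotype has 1 library. Depth limits Klb, Abcb1a, Abcc4, Slc51a and Slc51b most.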
